A study of Mus musculus with 192 samples.

Results

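Glycogen synthase kinase 3 is a serine and threonine kinase that mammals make from a pair of genes, Gsk3a and Gsk3b. It was named for phosphorylating, and so switching off, glycogen synthase. Insulin acts on it through the insulin receptor, the Irs adaptor proteins, phosphoinositide 3-kinase and Akt, and Akt phosphorylates both kinases near their N-termini, which inhibits them. In neurons the kinases are known for phosphorylating tau and for marking beta-catenin for degradation, so much of their control lies in protein phosphorylation, which mRNA counts do not measure.

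The transcripts of both kinases were measured in the brains of Line 44 (L44) mice, and both were chosen by gene name, as 2 of the 43 target genes on an nCounter panel, a method that counts colour-coded probes bound to single mRNA molecules without amplification. The counts came from 192 RNA pools of male mice on the FVB/n background, 149 pools of 2 mice and 43 of 1 mouse, from 46 hindbrain, 49 midbrain, 48 left cortex and 49 right cortex preparations. The hindbrain preparation included the cerebellum, and the midbrain preparation included the forebrain and the hypothalamus. Hemizygous (HEM) and homozygous (HOM) mice carried a triprolyl-human amylin transgene driven by the rat insulin 2 promoter. Nontransgenic (NON) mice lacked it, and mice of all genotypes were bred from HEM parents. The NON mice were littermates where possible, and otherwise mice of the same age from another litter. Tissue was taken before diabetes at T1, at ages of 99 to 101 days, at diabetes onset or a matched age at T2, between 90 and 286 days, and at T3, between 400 and 408 days. Collection was in the morning (AM) or the early afternoon (PM), and 12 T1 HEM pools had no collection time in their labels and entered the region comparisons and group levels only. All transgenic mice came from a single line, and 12 of the 24 NON pools at T3 carried a label of earlier diabetes, as did 13 of 23 HEM and 18 of 22 HOM pools.

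The region labels were checked against the hypothalamic peptide Mch, whose median level was 4.11 times the reference gene mean in the midbrain preparation, 0.0246 in hindbrain, 0.017 in left cortex and 0.0186 in right cortex. Of the other hypothalamic peptide genes, the lowest Hcrt level in midbrain pools, 0.0761, was above the highest elsewhere, 0.026. Agrp and Pomc reached 0.0749 and 0.189 in single hindbrain pools, above the highest midbrain levels of 0.031 and 0.139. Their median levels were 0.00676 and 0.0209 in hindbrain, under 0.0187 and 0.0542 in midbrain. Agrp was above the negative-control background in 40 of 46 hindbrain pools and Pomc in 43, against 49 of 49 midbrain pools for both. No defining gene of cerebellum or cortex was among the target genes used here, so those labels have no such check.

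The promoters of both kinase genes are given because the report turns on how far the 2 transcripts moved together. RefSeq (mouse build GRCm38.p6) places Gsk3a on the minus strand of chromosome 7, from 25228258 to 25237851, a gene of 9594 bases, and Gsk3b on the plus strand of chromosome 16, from 38089001 to 38246084, a gene of 157084 bases. The genome build behind the probe design was not given in the sources used here. Each sequence below runs 5′ to 3′ along the gene's own strand, from 250 bases before the annotated start to 50 bases after it, with matches to CCAAT (or ATTGG on the other strand) and to GGGCGG (or CCGCCC) in capitals. The windows are chr7:25237802-25238101 for Gsk3a and chr16:38088751-38089050 for Gsk3b.
Gsk3a: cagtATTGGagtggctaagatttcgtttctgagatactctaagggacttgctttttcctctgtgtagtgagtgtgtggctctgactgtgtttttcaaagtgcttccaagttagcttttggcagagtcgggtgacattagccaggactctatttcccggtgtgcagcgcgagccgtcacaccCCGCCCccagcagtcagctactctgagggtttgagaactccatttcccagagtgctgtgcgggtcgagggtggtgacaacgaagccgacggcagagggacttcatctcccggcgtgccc
Gsk3b: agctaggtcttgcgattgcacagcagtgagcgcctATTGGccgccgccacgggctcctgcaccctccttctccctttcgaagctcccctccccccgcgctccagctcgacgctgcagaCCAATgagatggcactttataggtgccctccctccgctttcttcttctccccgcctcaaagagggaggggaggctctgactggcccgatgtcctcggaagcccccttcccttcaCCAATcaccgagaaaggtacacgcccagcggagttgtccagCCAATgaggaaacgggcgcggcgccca
The Gsk3b window held 4 matches to CCAAT and none to GGGCGG, and the Gsk3a window held 1 of each. Of 32817 RefSeq mouse promoters cut to the same length, 37.4% held CCAAT on either strand, 1.06% held it 4 or more times, and 35.6% held GGGCGG. These are descriptions of letters in a window, not of binding.

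Both kinases were among the target genes with the highest counts on the panel. By raw count, Gsk3a ranked between 1st and 3rd of the 43 target genes in every pool and Gsk3b between 2nd and 6th. Gsk3a made up a median of 9.90% of target counts in midbrain, 11.7% in hindbrain, 12.4% in left cortex and 12.5% in right cortex, and Gsk3b between 7.25% in left cortex and 8.55% in hindbrain. Total counts per pool ran from 3489 to 525264, with a median of 234937, and neither kinase was at or under the negative-control background in any pool. The shallowest 3 pools were T3 hindbrain pools, 2 NON and 1 HOM, where Gsk3a was counted 1596, 735 and 400 times. Probes differ in how well they bind, so the counts do not rank one kinase above the other per transcript; the level of each kinase, its count divided by the geometric mean of the 3 reference genes, and the ratio of the Gsk3a count to the Gsk3b count are compared only between pools.

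Gsk3a was higher in the cortices than elsewhere, and the gap was close to the same on both sides. Its level (mean ± SD) was 3.63 ± 0.33 (n = 46) in hindbrain, 4.18 ± 0.28 (n = 49) in midbrain, 6.18 ± 0.35 (n = 48) in left cortex and 6.17 ± 0.42 (n = 49) in right cortex. The cortical pools ran from 4.94 to 6.90 and the hindbrain and midbrain pools from 2.75 to 4.82, so the levels did not overlap between them. How many of the 43 genes part in this way was not counted, here or in later comparisons of pool ranges. Pools with the same label in different regions were taken to hold RNA of the same mice (the labels' ages match except in 1 HOM pool at T3, between left cortex and midbrain, without which no kinase or ratio call changed), and these were compared as pairs with edgeR's quasi-likelihood test, adjusted by Benjamini-Hochberg over the 43 genes. Gsk3a was 1.48-fold higher in left cortex than in midbrain (log2 fold-change 0.57 ± 0.016 (SE), adjusted p = 1.2e-35) and higher in 46 of 46 paired pools, and 1.48-fold higher in right cortex (adjusted p = 2.5e-37), again in 46 of 46. Against hindbrain it was 1.68-fold higher in left cortex (adjusted p = 7.1e-32) and 1.69-fold higher in right cortex (adjusted p = 4.37e-34), in 36 of 36 paired pools each time.

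These region differences stood on a panel where most genes differed between regions. Of the 43 genes, 81.4% passed the test between left cortex and midbrain, 76.7% between right cortex and midbrain, 83.7% between left cortex and hindbrain, 88.4% between right cortex and hindbrain and 86% between midbrain and hindbrain, so that passing it is not particular to the kinases. The size of the Gsk3a difference can be set against the middle of the panel: the median gene differed by a log2 fold-change of -0.02 between left cortex and midbrain and 0.17 between left cortex and hindbrain, where Gsk3a differed by 0.57 and 0.75. Scaling by the target genes themselves (the trimmed mean of M-values, TMM) or by positive control probes kept Gsk3a higher in both cortices than in midbrain and hindbrain.

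Gsk3b followed a shallower order. Its level was 2.63 ± 0.37 in hindbrain, 3.28 ± 0.22 in midbrain, 3.49 ± 0.46 in left cortex and 3.57 ± 0.52 in right cortex, over the same pools, and the midbrain and cortical ranges overlapped. It was lowest in hindbrain. Gsk3b was 1.34-fold higher in left cortex than in hindbrain (log2 fold-change 0.42 ± 0.021, adjusted p = 1.3e-21) and 1.38-fold higher in right cortex (0.46 ± 0.019, adjusted p = 1.3e-24), in 36 of 36 pairs each. Against midbrain the difference was small, 1.06-fold in left cortex (0.08 ± 0.021, adjusted p = 2.4e-04, higher in 32 of 46 pairs) and 1.08-fold in right cortex (0.11 ± 0.027, adjusted p = 1.5e-04, higher in 33 of 46). At T1 these values were 0.17 and 0.16, and at T3 they turned to -0.07 (adjusted p = 0.0052) and -0.10 (4.3e-04). Leaving out the third of the reference genes turned both differences over all time points to -0.02, with adjusted p of 0.19 and 0.52.

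Between midbrain and hindbrain, Gsk3a was 1.15-fold higher in midbrain (log2 fold-change 0.20 ± 0.019, adjusted p = 1.4e-12, 37 of 38 pairs) and Gsk3b 1.24-fold higher (0.31 ± 0.027, adjusted p = 9.8e-14, 38 of 38 pairs). The median gene was also higher in midbrain, by 0.37, which is more than either kinase, and TMM scaling turned Gsk3a to -0.13 (adjusted p = 8.65e-10) and Gsk3b to -0.02 (adjusted p = 0.40). The direction of this difference therefore depended on the scaling. Over all time points the levels of the left and right cortices did not pass the test, although Gsk3b did at T2 alone: the right less left log2 fold-change was -0.001 for Gsk3a (95% interval -0.02 to 0.02) and 0.03 for Gsk3b (0.001 to 0.06, adjusted p = 0.20), and 0% of the 43 genes passed the test between them.

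**Figure D1:**
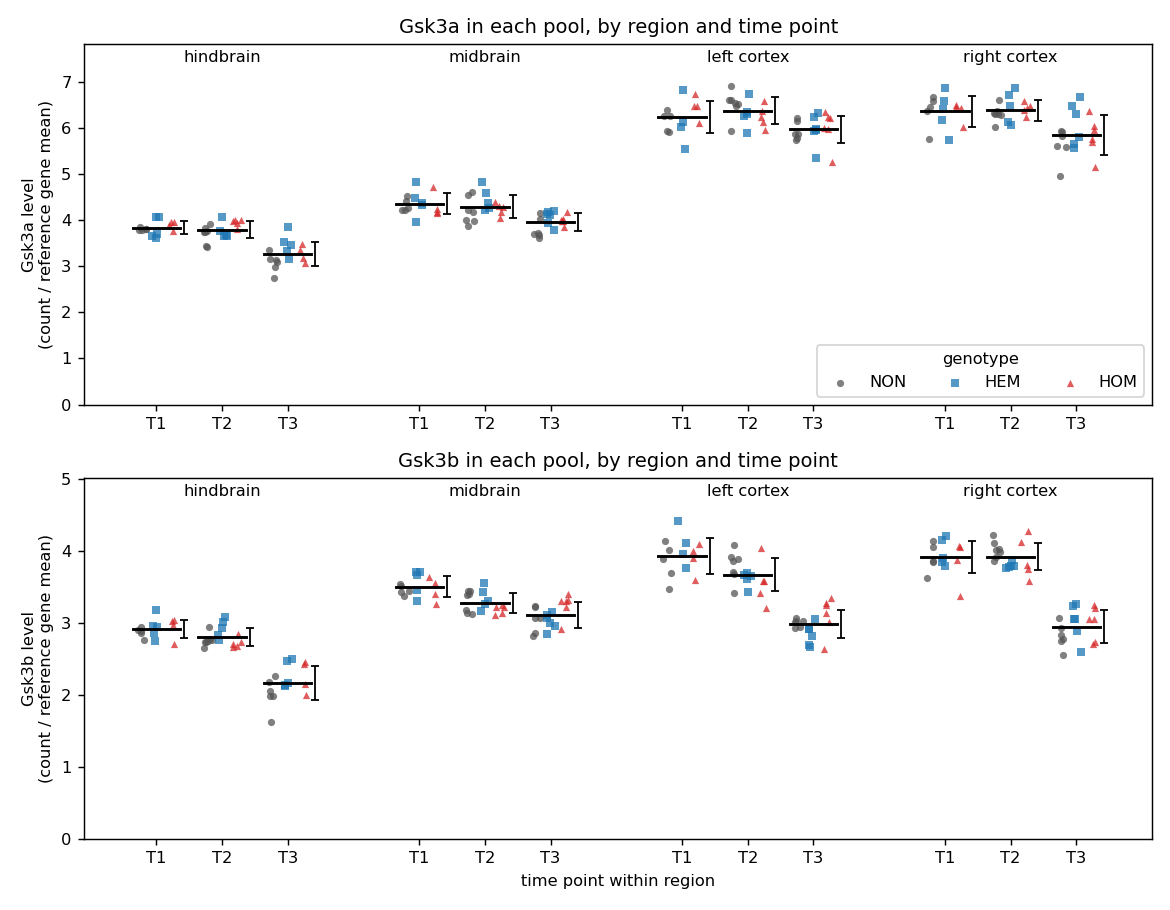
Level of Gsk3a (upper panel) and Gsk3b (lower panel) in each of the 192 pools, as the count divided by the geometric mean of 3 reference genes, by region and time point, with genotype as symbol; horizontal lines are means and error bars SD over the pools of all genotypes. Gsk3a lies between 4.94 and 6.90 in the cortices and between 2.75 and 4.82 in hindbrain and midbrain, and both kinases lie lowest at T3 in each region.

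The ratio of Gsk3a to Gsk3b needs no reference gene, and it was higher in cortex within every paired pool. It was 1.39 ± 0.13 in hindbrain, 1.28 ± 0.066 in midbrain, 1.80 ± 0.20 in left cortex and 1.76 ± 0.20 in right cortex (mean ± SD). The ratio was higher in left cortex than in midbrain in 46 of 46 paired pools (1.40-fold) and higher in right cortex in 46 of 46 (1.37-fold). Against hindbrain it was higher in 36 of 36 pairs on both sides, 1.26-fold in left cortex and 1.22-fold in right cortex. All 4 differences had an adjusted p of 1.5e-05 by a sign-flip permutation test over pairs, adjusted over 6 region pairs, which follows from the smallest p that 100000 permutations can give. The ratio was lower in midbrain than in hindbrain in 30 of 38 pairs (0.926-fold, adjusted p = 2.4e-05, permutation test) and lower in right than in left cortex in 29 of 45 (0.979-fold, adjusted p = 0.0173, permutation test). Ratios of other gene pairs were not computed, so these counts of paired pools cannot be set against the panel.

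The ratio widened in the cortices at T3. In left cortex the ratio ran from 1.39 to 1.73 (median 1.62) over the 13 pools at T1, from 1.62 to 1.94 (median 1.71) over 17 at T2 and from 1.79 to 2.33 (median 1.99) over 18 at T3. In right cortex it ran from 1.46 to 1.84 (median 1.62) over 14 pools at T1, from 1.49 to 1.82 (median 1.61) over 17 at T2 and from 1.79 to 2.15 (median 1.96) over 18 at T3. The T1 and T3 pools of the left cortex thus did not overlap, and those of the right cortex overlapped only between 1.79 and 1.84.

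The cortical rise was seen within genotypes. In NON mice the ratio at T3 was 1.24-fold its T1 value in left cortex (log2 difference 0.30, 6 and 5 pools) and 1.23-fold in right cortex (0.30, 6 and 5 pools), each with an adjusted p of 0.0378 by an exact permutation test within collection time, adjusted over 34 comparisons. In HOM mice it was 1.18-fold in left cortex (0.24, exact test, adjusted p = 0.045) and 1.16-fold in right cortex (0.22, exact test, adjusted p = 0.045), with 6 and 4 pools. On each side only 1 of the T3 HOM pools was collected in the PM, and the AM and PM differences had equal weight. Leaving out any 1 of the 10 HOM pools kept the value between 0.23 and 0.25 in left and between 0.20 and 0.30 in right cortex, and too few arrangements of the pools then remained for the exact test to pass. HEM mice had 1 T1 pool comparable by collection time in left cortex, which gave no test, and 2 in right cortex, where the ratio was 1.23-fold higher at T3 (2 and 2 pools, exact test, adjusted p = 0.436, smallest p possible 0.167). Between T2 and T3 in HEM mice the ratio rose 1.22-fold in left and 1.21-fold in right cortex (6 and 5 pools, exact test, adjusted p = 0.0378 each). Leaving out 1 HEM pool gave values from 0.24 to 0.33 in left and from 0.25 to 0.30 in right cortex; without a T2 AM pool the smallest p the HEM test allows could not pass. The NON call in right cortex was lost without T3 PM pool 8/9 (0.29, exact test, adjusted p = 0.0567), and that in left cortex held without each of its pools. In the 6 called comparisons no pool of the earlier time point reached the lowest T3 pool. With the 3 genotypes together and labels permuted within genotype and collection time, a test chosen after seeing the data, T3 exceeded T1 1.23-fold in left cortex (permutation p adjusted over 12 comparisons = 7.9e-05) and 1.20-fold in right cortex (5.3e-05).

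Midbrain did not show this rise at T3. Its ratio ran from 1.16 to 1.31 (median 1.24) at T1, from 1.22 to 1.40 (median 1.31) at T2 and from 1.15 to 1.42 (median 1.28) at T3. In NON mice the log2 difference between T3 and T1 was -0.005 (exact permutation test, adjusted p = 0.93), and over all genotypes 0.04 (permutation test, adjusted p = 0.193). Between T1 and T2 the ratio over all genotypes rose 1.04-fold in midbrain (permutation test, adjusted p = 0.0244) and 1.07-fold in left cortex (0.00248), and was 0.981-fold in right cortex (0.244). The difference between regions itself was tested in paired pools: the left cortex less midbrain log2 ratio averaged 0.36 at T1 and 0.66 at T3, and that of right cortex less midbrain 0.39 and 0.66, with an adjusted p of 4e-05 for both by permutation of the time labels within genotype. The cortical ratio exceeded the midbrain ratio by 1.12-fold to 1.49-fold in the T1 pairs and by 1.42-fold to 1.85-fold in the T3 pairs.

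The hindbrain ratio also rose at T3 over all genotypes. The ratio ran from 1.26 to 1.39 (median 1.31) at T1 and from 1.26 to 1.79 (median 1.56) at T3, and the T3 pools spread over a range wider than that of the T1 pools. Over all genotypes T3 exceeded T1 1.15-fold (log2 difference 0.20, permutation test, adjusted p = 0.00137). In paired pools the left cortex less hindbrain log2 ratio changed by 0.10 from T1 to T3 (exact permutation test, adjusted p = 0.0639, 6 T3 pairs). The right cortex less hindbrain ratio changed by 0.04 (0.435, 5 T3 pairs) and the midbrain less hindbrain ratio by -0.23 (1.91e-04, 7 T3 pairs). The hindbrain change was thus told apart from that of midbrain, but not from those of the cortices. In NON mice alone the hindbrain difference between T3 and T1 was 0.22 (exact test, adjusted p = 0.0405) and 0.18 without the 3 shallow pools (exact test, adjusted p = 0.0515). Leaving out 1 pool in turn lost the NON call in 5 of 11 fits (values from 0.16 to 0.27, exact test, adjusted p up to 0.081). In all, 12 of 34 comparisons between time points had a called rise of the ratio and none a called fall. Ratios of other gene pairs were not computed, so this count cannot be set against the panel. Without the 3 shallow pools 6 were called. The values of the 4 HOM cortex comparisons with T3 do not involve those pools, but their adjusted p became 0.0515 for T1 and 0.0506 for T2 on both sides, since all comparisons share one adjustment.

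Total signal also fell in the cortices at T3. The reference gene mean relative to the positive control probes, a measure of how much RNA was counted, went from a median of 15.4 at T1 to 6.20 at T3 in left cortex and from 17.3 to 5.20 in right cortex, from 8.46 to 5.19 in hindbrain, and from 8.29 to 9.07 in midbrain. Signal and time point thus moved together in the regions where the ratio rose. Within a region and time point the ratio could be set against signal over 13 to 18 pools, and none of 12 correlations passed the adjustment: Pearson's r at T3 was 0.11 in left cortex (permutation p = 0.657, adjusted 0.819) and -0.01 in right cortex (p = 0.955, adjusted 0.955), with Spearman's rho of -0.06 (p = 0.804, adjusted 0.964) and -0.03 (p = 0.921, adjusted 0.964). Without the 2 pools farthest from the median signal these r were 0.21 and -0.10.

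At T2 the cortices parted from each other. The right cortex ratio lay under the left cortex ratio in 17 of 17 paired pools at T2, against 4 of 13 at T1 and 8 of 15 at T3. The right less left log2 ratio averaged -0.09 at T2 and 0.03 at T1, a difference of -0.12 (permutation test, adjusted p = 4e-05). Gsk3b carried it: its level was 1.07-fold higher on the right at T2 (log2 fold-change 0.10, edgeR adjusted p = 5.2e-05, higher in 16 of 17 pairs), while Gsk3a differed by 0.003. The T2 pools of the sides also differed in signal, with a median reference gene mean of 11.9 times the positive controls on the left and 18.2 on the right, and its part in the difference was not tested.

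**Figure D2:**
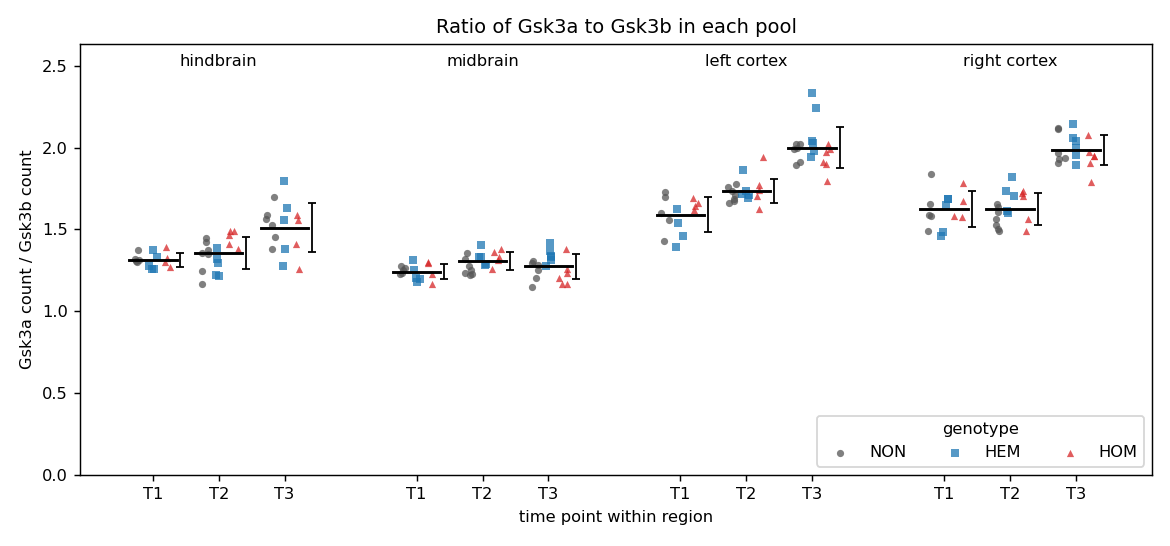
Ratio of the Gsk3a count to the Gsk3b count in each pool (vertical axis, no unit) by region and time point, with genotype as symbol; horizontal lines are means and error bars SD over the pools of all genotypes. The ratio lies between 1.79 and 2.33 in the cortices at T3, above nearly all cortical pools of T1, and between 1.15 and 1.42 in midbrain at T3.

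The levels behind the ratio fell between T1 and T3 when scaled by the reference genes. Gsk3b in left cortex ran from 3.48 to 4.42 (median 3.96) at T1 and from 2.64 to 3.35 (median 3.02) at T3, and in right cortex from 3.38 to 4.21 (median 3.89) and from 2.56 to 3.27 (median 3.00). In the cortices the T1 and T3 pools of Gsk3b did not overlap. Gsk3a in left cortex ran from 5.53 to 6.81 (median 6.24) at T1 and from 5.26 to 6.34 (median 5.97) at T3, with wide overlap. In hindbrain both kinases were lower at T3. Gsk3a had a median of 3.80 at T1 and 3.18 at T3 there, and Gsk3b 2.92 and 2.15. Gsk3b pools in hindbrain did not overlap. How many of the other target genes had no overlap between T1 and T3 was not counted.

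The tests were made within a genotype, as the mean over collection times. In NON mice Gsk3b fell by 0.54 ± 0.058 (log2 fold-change ± SE) in hindbrain (adjusted p = 5.5e-09), by 0.48 ± 0.046 in right cortex (6.0e-11), by 0.36 ± 0.047 in left cortex (4.8e-08) and by 0.19 ± 0.037 in midbrain (1.3e-04). Gsk3a fell by 0.33 ± 0.043 in hindbrain (1.9e-07), by 0.19 ± 0.042 in midbrain (3.7e-04) and by 0.18 ± 0.047 in right cortex (0.0010), and its value in left cortex was -0.05 ± 0.039 (adjusted p = 0.24). These are edgeR values adjusted over the 43 genes. The midbrain falls were not called without the first of the reference genes (Gsk3a -0.05 and Gsk3b -0.05, adjusted p = 0.471 each) or in PM pools alone (-0.10, 0.459, and -0.13, 0.145). Gsk3a in left cortex was called without the first of the reference genes (-0.16, 9.92e-04), and in right cortex it was not called in PM pools alone (-0.14, 0.0674). Over all genotypes, Gsk3a was called lower in 16 of 34 comparisons between time points and Gsk3b in 22 of 34, neither was called higher in any, and none exceeded 2-fold. All of these calls involved T3, with Gsk3b called lower in 11 of 11 comparisons of T3 with T1 and 11 of 12 of T3 with T2, and Gsk3a in 7 of 11 and 9 of 12. Between T2 and T1 neither was called in any of 11, with an unadjusted p under 0.05 in 0 for Gsk3a and 3 for Gsk3b.

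Lower calls were common on the panel, and they outnumbered higher ones. Lower calls made up 30.8% of all tests between time points, and in the NON comparison of T3 with T1 60.5% of genes were called lower in hindbrain, 51.2% in midbrain, 44.2% in left cortex and 51.2% in right cortex. The median gene fell by 0.54 in hindbrain, 0.20 in midbrain, 0.22 in left cortex and 0.33 in right cortex. Relative to that median, Gsk3a was higher by 0.21 in hindbrain, 0.16 in left cortex, 0.15 in right cortex and 0.005 in midbrain, and Gsk3b was lower by 0.14 in left cortex and 0.15 in right cortex, at the median itself in hindbrain and 0.01 above it in midbrain. Counted from the largest fall among the 43 genes, Gsk3b was 22nd in hindbrain, 27th in midbrain, 19th in left cortex and 15th in right cortex, and Gsk3a 29th, 24th, 27th and 31st.

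Whether Gsk3a fell or rose therefore depended on what it was scaled to. Under TMM scaling its NON log2 fold-change between T1 and T3 was 0.16 in hindbrain (adjusted p = 0.045), 0.22 in left cortex (5.98e-05), 0.18 in right cortex (0.0030) and 0.01 in midbrain (0.998), and over all genotypes it was called higher in 13 of 34 comparisons and lower in 0. Gsk3b under TMM scaling was called lower in 4 of 34 and higher in 1. Calls over the whole panel under TMM are not counted here, so the counts of both kinases cannot be set against it. The ratio does not depend on the scaling, since both kinases share it.

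**Figure D3:**
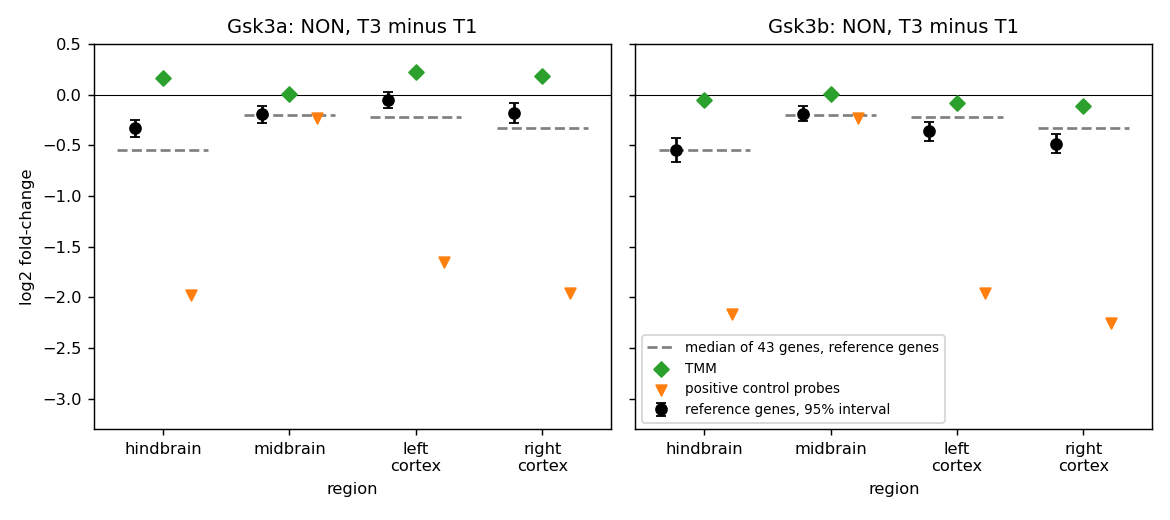
Log2 fold-change between T1 and T3 in NON mice for Gsk3a (left panel) and Gsk3b (right panel) by region, scaled by reference genes (circles, with 95% intervals), by TMM (diamonds) and by positive control probes (triangles, which also carry differences in RNA amount); dashed lines are the median of the 43 genes under reference gene scaling. Gsk3a in hindbrain and the cortices lies above the dashed line under reference genes and above 0 under TMM. Under reference genes Gsk3b lies at or below the dashed line except in midbrain.

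The other genes of the pathway on the panel were taken as fixed lists, 9 genes from the insulin receptor to Akt with the phosphatase Ptp1b, and 3 other genes that lie downstream of Akt. Of the 9 upstream genes, 8 were called lower in hindbrain between T1 and T3 in NON mice, 6 in midbrain, 5 in left cortex and 8 in right cortex, with 2 called higher in left cortex and 1 in right cortex. Of all 43 genes, 26, 22, 19 and 22 were called lower in that order of regions, and 1, 0, 6 and 5 higher. The list's median log2 fold-change was -0.65 in hindbrain, -0.20 in midbrain, -0.22 in left cortex and -0.45 in right cortex, against -0.54, -0.20, -0.22 and -0.33 for all genes tested. Without Pdk1, whose probe is that of another gene, 7, 6, 4 and 7 of 8 were called lower in that order of regions, with medians of -0.70, -0.20, -0.21 and -0.40, and single genes in right cortex ran from -0.82 to 0.37. Under TMM scaling, with Pdk1 counted, 5, 1, 4 and 4 of the 9 were called lower in that order of regions. With the same scaling 1, 2, 3 and 2 were called higher, so the count of falling genes also rested on the reference genes. Calls over the whole panel under TMM are not counted here, so these counts cannot be set against it. The list's median under TMM was -0.16, -0.0007, 0.06 and -0.09, against -0.05, 0.001, 0.06 and 0.04 for all genes tested.

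Single upstream genes went different ways in the cortices. Pik3ca, the catalytic subunit of phosphoinositide 3-kinase, fell by 0.83 ± 0.042 in left cortex (edgeR adjusted p = 1.1e-17) and by 0.82 ± 0.051 in right cortex (1.3e-15). Insr, the insulin receptor, fell by 0.63 ± 0.070 and by 0.70 ± 0.061 (2.6e-09 and 4.8e-12). Akt1, the kinase that phosphorylates both Gsk3 proteins, was higher by 0.35 ± 0.041 in left cortex (1.1e-08) and 0.37 ± 0.066 in right cortex (1.2e-05), while Akt2 fell by 0.22 ± 0.071 and by 0.35 ± 0.089 (0.0082 and 9.5e-04). Under TMM scaling Pik3ca and Insr were still called lower and Akt1 higher on both sides, Akt2 became 0.06 (adjusted p = 0.50) and 0.02 (0.88), and positive control scaling, which moved the median gene by -1.83 and -2.09, turned Akt1 to -1.25 and -1.40. All 3 of the genes downstream of Akt were called lower in the cortices and 2 of 3 in hindbrain and midbrain, where 19 and 22 of all 43 genes were called lower in left and right cortex, 26 in hindbrain and 22 in midbrain. Among them mTor, a kinase of growth control, fell by 1.06 ± 0.13 in hindbrain (1.1e-07), and Pde3b, a cyclic nucleotide phosphodiesterase, by 0.85 ± 0.070 in left cortex (3.0e-12), and both of these were also called lower under TMM scaling, where 2, 0, 2 and 1 of the 3 were called lower in hindbrain, midbrain, left and right cortex and 1, the transcription factor gene Foxo1 in hindbrain (0.36, 3.2e-04), was called higher. Under TMM scaling the median of these 3 genes was -0.53, 0.008, -0.20 and 0.02 in that order of regions. For all 43 genes it was -0.05, 0.001, 0.06 and 0.04. Calls over all 43 genes under TMM are not counted here, so the counts of these 3 cannot be set against the panel. RefSeq assigns the panel's Pdk1 probe to pyruvate dehydrogenase kinase 1 and not to the phosphoinositide-dependent kinase of the pathway.

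Across regions the upstream list was mixed. Between left cortex and midbrain 5 of 9 were called higher in cortex and 1 lower (median 0.24), between right cortex and midbrain 5 higher and 1 lower (median 0.26), and between left cortex and hindbrain 5 higher and 2 lower (median 0.17). Between right cortex and hindbrain 6 were called higher and 2 lower, and between midbrain and hindbrain 4 were called higher in midbrain and 3 lower. Of all 43 genes, 17, 16, 23, 25 and 31 were called higher and 18, 17, 13, 13 and 6 lower in these 5 comparisons. The list's medians were 0.24 and 0.26 between left and right cortex and midbrain against -0.02 and -0.05 for all genes, 0.04 between midbrain and hindbrain against 0.37, and 0.17 and 0.13 between left and right cortex and hindbrain, as for all genes. Without Pdk1 the list's medians were 0.12, 0.13, 0.01, 0.10 and 0.11 in that order.

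The region differences of the kinases were also compared between time points. The Gsk3b difference between left cortex and midbrain moved by -0.23 ± 0.033 from T1 to T3 (edgeR adjusted p = 1.8e-08) and that between right cortex and midbrain by -0.26 ± 0.037 (2.7e-08). At T1 Gsk3b was higher in left cortex than in midbrain in 13 of 13 pairs and in right cortex in 14 of 14, and at T3 it was lower in 13 of 16 and 13 of 15. Gsk3a did not pass this test against midbrain, at 0.06 ± 0.037 on the left (adjusted p = 0.178) and 0.01 ± 0.034 on the right (0.758). It passed without any 1 of the reference genes, in opposite directions: -0.11 and -0.15 on the left and right without the first, 0.14 and 0.09 without the second, and 0.15 and 0.10 without the third. Of all such tests between T1 and T3 over the 6 region pairs and 43 genes, 42.2% passed, so the region by time differences were common on the panel, and under TMM scaling the Gsk3b values became -0.01 and -0.02 while those of Gsk3a became 0.29 and 0.25.

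Few genotype comparisons of the kinases passed the test. Across 54 comparisons of HEM, HOM and NON within a region, time point and collection time, Gsk3a passed the test in 3 and Gsk3b in 4, where 3.62% of all gene tests passed. All 7 were at T3 in the AM, higher in transgenic than in NON pools. Within a region HEM and HOM were set against the same NON pools, so these calls are not independent. None reached 2-fold, where 0.301% of all gene tests passed with more than 2-fold. Of all genes over the 4 regions at T3 AM, 20.3% were called higher in HOM than in NON and 10.5% higher in HEM than in NON.

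In hindbrain at T3 AM, Gsk3a was 2.98 and 2.75 in the NON pools, 3.85 and 3.46 in the HEM pools and 3.35, 3.07 and 3.48 in the HOM pools. Every transgenic pool was above the NON pools. Gsk3a was higher in HEM by 0.35 ± 0.069 (adjusted p = 9.9e-04) and in HOM by 0.20 ± 0.064 (0.0239), where the median gene was higher by 0.15 and 0.17. Gsk3b was 2.05 and 1.62 in NON, 2.14 and 2.50 in HEM and 2.15, 2.44 and 2.47 in HOM, higher by 0.33 ± 0.092 in HEM (0.0091) and 0.35 ± 0.085 in HOM (0.0042). These groups held 2 of the 3 shallow pools, with reference gene means of 267 in NON and 131 in HOM, against a hindbrain median of 4783. Leaving out 1 pool in turn gave HEM differences from 0.18 to 0.52 for Gsk3b and from 0.27 to 0.42 for Gsk3a, and HOM differences from 0.19 to 0.54 and from 0.15 to 0.26. The Gsk3b call was lost in HEM without NON pool 7 or HEM pool 12 and in HOM without NON pool 7, and the Gsk3a call in HOM without NON pool 7 or HOM pool 3/4 or 12. Without the second of the reference genes the HOM differences became 0.11 for Gsk3a (adjusted p = 0.274) and 0.26 for Gsk3b (0.11), and with previously diabetic transgenic pools alone that of Gsk3a became 0.16 (0.103). Without the shallow pools, which left 1 NON pool assumed to vary like the other groups, Gsk3b became 0.18 in HEM (adjusted p = 0.21) and 0.17 in HOM (0.252) and Gsk3a in HOM 0.20 (0.0911), and the HEM difference of Gsk3a still passed. With only the pools of the groups compared in the fit none of the 4 passed (adjusted p from 0.443 to 0.485).

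In midbrain at T3 AM, Gsk3a was 3.66, 3.73 and 3.60 in the NON pools and 4.17, 4.19, 4.14 and 3.92 in the HEM pools, which did not overlap, and was higher in HEM by 0.16 ± 0.053 (adjusted p = 0.0280). This call was lost in 5 of 7 fits without 1 pool (adjusted p up to 0.112, values from 0.15 to 0.19) and without the first (0.228) or the third (0.0987) of the reference genes, and with previously diabetic transgenic pools alone (0.15, 0.233). Gsk3b was 2.83, 3.24 and 2.87 in NON and 3.32, 3.22, 3.30, 3.33 and 3.41 in HOM, higher in HOM by 0.15 ± 0.045 (0.0107), with 1 NON pool inside the HOM range. In right cortex at T3 AM, Gsk3b was 2.76, 2.78 and 2.56 in NON and 3.26, 3.06, 3.21, 3.06 and 2.74 in HOM, higher by 0.19 ± 0.056 (0.0149), with 1 HOM pool inside the NON range. The Gsk3b calls were lost in midbrain without NON pool 3/4 or 10 (adjusted p up to 0.144) and in right cortex without NON pool 10 (0.177). Without the first of the reference genes both were lost too, at 0.05 in midbrain (0.719) and 0.16 in right cortex (0.0526). The median gene was higher in the same comparisons by 0.11, 0.12 and 0.24, and the left cortex gave no call. Under TMM scaling 0 of the 54 comparisons was called for Gsk3a and 1 for Gsk3b. DESeq2 with reference gene scaling called Gsk3a in 3, all higher in transgenic than in NON pools, and Gsk3b in 6, of which 1, HOM against NON in left cortex at T2 PM, was lower. Without the first reference gene 4 and 5 were called, 1 and 2 of them lower. When the AM and PM effects were averaged each kinase was called in 1 of 28.

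Elsewhere the genotype effects were bounded rather than called. Over the 54 comparisons the log2 fold-changes of Gsk3a ran from -0.14 to 0.35 with SE between 0.043 and 0.077, and those of Gsk3b from -0.16 to 0.35 with SE between 0.041 and 0.092. The ratio passed in 0 of 34 genotype comparisons (exact permutation tests within collection time); the smallest adjusted p was 0.101, for HEM against NON in right cortex at T2, where the unadjusted p was 0.00298, the smallest that 5 against 7 pools allow. The smallest p any of these designs allows is 0.00265, which times 34 is 0.0899, so no comparison could pass on its own and the count of 0 says little; 7 had an unadjusted p under 0.05. The T2 right cortex HOM pools, which were grouped by title and genotype, carry a source label of hemizygous, so the HEM and HOM groups there are less certain. The effect of genotype at T2 or T3 less that at T1 passed in 0 of 14 tests for each kinase by edgeR, with an unadjusted p under 0.05 in 1 for each, where 0.332% of all gene tests passed. Between PM and AM collection neither kinase was called in any of 28 comparisons by edgeR, with unadjusted p under 0.05 in 2 for Gsk3a and 5 for Gsk3b, and 2.16% of all gene tests passed.

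**Figure D4:**
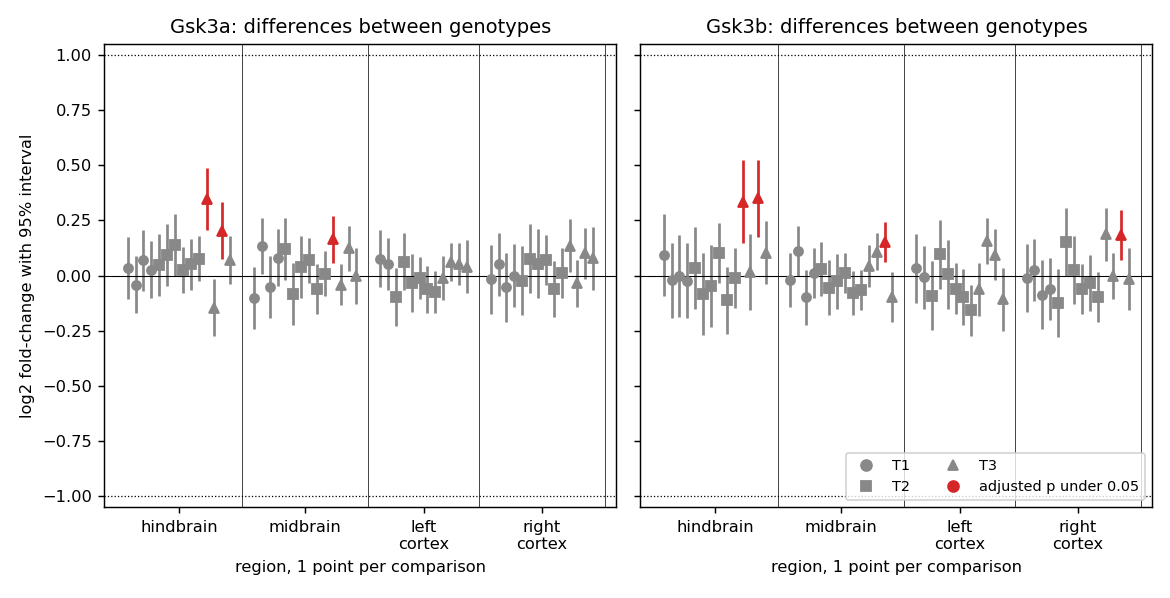
Log2 fold-change between genotypes for Gsk3a (left panel) and Gsk3b (right panel) in each of the 54 tested comparisons by region, with 95% intervals from edgeR; symbols give the time point, red marks an adjusted p under 0.05 and dotted lines mark 2-fold. The 7 red points lie between 0.15 and 0.35, all at T3, and every other interval lies within 2-fold.

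The levels of the 2 kinases correlated across pools in midbrain and both cortices. After the mean of each group was removed, their log2 levels correlated across pools with Pearson's r of 0.66 in midbrain (n = 48, adjusted p = 9.2e-04), 0.64 in right cortex (n = 48, 0.0024) and 0.51 in left cortex (n = 46, 0.0098), and 0.03 in hindbrain (n = 45, 0.897). Spearman's rho was 0.66, 0.60, 0.47 and 0.05 in that order, with adjusted p of 0.0016, 0.0041, 0.0182 and 0.821. All p-values are from permutation of pools within groups, adjusted over 4 regions. Without the 2 pools farthest from the median, r was 0.66, 0.64, 0.45 and -0.02. Both levels share the reference genes as denominator, which adds to r, and expressed relative to the median target gene, which they then share instead, r was 0.91, 0.88, 0.88 and 0.85 in that order. Differences in r between regions were not tested.

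Over the 36 means of region, time point and genotype, the genes whose level was most like that of Gsk3a were Pdk1 (r = 0.93), Npy (0.93) and Arrb1 (0.93), and Gsk3b was 12th at 0.75. Those most like Gsk3b were Ptp1b (0.94), Arrb2 (0.94) and mTor (0.93), with Gsk3a 13th. These r describe means that share reference genes and mice. Relative to the median target gene the order changed, Arrb2 and Arrb1, the beta-arrestins that switch off receptor signalling, led for Gsk3a (0.96 and 0.96), and the kinases correlated with each other at 0.95.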

How the data were processed

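The raw probe counts were deposited by the authors as a table of all pools, without normalisation; pooling, hybridisation and counting were the authors'. Each pool holds RNA of 1 mouse or a mix of 2 separate mice. Levels are counts over the geometric mean of 3 reference genes, which also served as library size in edgeR 4.0.16 (R 4.3.3, quasi-likelihood test), fitted on all 43 target genes, with 1 model per region and Benjamini-Hochberg adjustment over the 43 genes; a call is an adjusted p under 0.05. Paired pools were compared between regions with the pool as a block. Ratios were tested by permutation over pools (Python 3.11.15, scipy 1.17.1, 100000 permutations, or exact). Scripts were tested on simulated data. The members and lists were chosen with earlier results of these data known; the named genes are the kinases, the fixed lists, and the 3 genes most like each kinase. The study's own count model was not used here. No pools of a group had identical counts. Alternatives covered scaling, DESeq2 1.42.0, background subtraction, filters and left-out pools. Individual reference genes are not reported here. Ages matched some T2 pools; over 40 such pairs the deviations correlated at a median of -0.04, so ages were not used as pairs.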

Additional observations from a re-analysis of the deposited data

Results flagged for a closer look

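In 108 checks for a single stray pool (36 groups, 3 measures), 10 pools stood apart from the rest of their group; chance gives about 1 in 20. In hindbrain these were a T1 NON pool with a Gsk3a level of 3.851 and another with a ratio of 1.375, a T2 HEM pool with a Gsk3a level of 4.064 and a T2 NON pool with a Gsk3b level of 2.95. In left cortex they were a T2 HEM pool with a ratio of 1.863, a T2 NON pool with a Gsk3a level of 5.922 and a T3 HOM pool with 5.257. In right cortex they were a T1 HOM pool with a Gsk3a level of 6.025, a T2 HEM pool with a Gsk3b level of 3.873 and a T3 NON pool with a Gsk3a level of 4.943. That last pool is 1 of the 3 NON pools at T3 AM, and the T3 HOM pool was the only HOM pool of left cortex at T3 PM. All were kept.

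Region differences that themselves differed between time points were also picked out. From T1 to T3 the Gsk3b difference moved by 0.3155 between midbrain and hindbrain, by -0.2344 between left cortex and midbrain and by -0.2584 between right cortex and midbrain (log2, edgeR adjusted p = 2.81e-07, 1.76e-08 and 2.74e-08), and the Gsk3a difference between left cortex and hindbrain by 0.1771 (0.00434). Under TMM scaling none of these was called (edgeR adjusted p = 0.0965, 0.865, 0.534 and 0.0635 in that order). The Gsk3a call was also lost under positive control scaling (0.29, edgeR adjusted p = 0.933). It was lost too without the first reference gene (0.11, 0.166) and without the shallow hindbrain pools (0.11, 0.0686). From T1 to T2 the Gsk3b difference between right and left cortex moved by 0.09946 (0.00981). The log2 ratio of Gsk3a to Gsk3b moved from T1 to T3 by -0.2257 between midbrain and hindbrain, by 0.2982 between left cortex and midbrain and by 0.2717 between right cortex and midbrain, and from T1 to T2 by -0.06837 between right cortex and midbrain and by -0.1172 between right and left cortex (permutation tests, adjusted p = 1.91e-04, 4e-05, 4e-05, 0.0492 and 4e-05).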

How the results depend on the processing

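Of 766 values computed under an alternative, leave-one-out fits aside, 627 kept their direction and side of the threshold (counts within 1.5-fold, values without a test within the stated spread) and 27 reversed. The cause was not tested where none is given. Counts limit the 3 shallow hindbrain pools most.

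TMM scaling gave more changes than any other single setting. Gsk3a between midbrain and hindbrain became -0.1264, its T3 less T1 change -0.1268, and its T3 less T1 changes for left cortex less hindbrain 0.1378, left cortex less midbrain 0.2876 and right cortex less midbrain 0.2508. Gsk3a between T1 and T3 in NON mice became 0.1619, 0.006601, 0.2234 and 0.1826 in hindbrain, midbrain, left and right cortex, in HOM mice 0.1789, 0.154 and 0.1569 in hindbrain, left and right cortex, and between T2 and T3 in HEM mice 0.2044, 0.01687, 0.3599 and 0.2182. Gsk3b between midbrain and hindbrain became -0.01661, and its T3 less T1 changes 0.08935 for midbrain less hindbrain, -0.007354 for left and -0.02235 for right cortex less midbrain. Gsk3b between T1 and T3 became -0.04772 in NON hindbrain, 0.0114 in NON midbrain, -0.08072 in NON left cortex and 0.000187 in HOM hindbrain, 0.07858 between T2 and T3 in HEM left cortex, and -0.000468 for HOM less NON in right cortex at T3 AM. Calls over time fell to 0 lower for Gsk3a and 4 for Gsk3b, and genotype calls to 0 and 1.

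Positive control scaling gave 0.3337 for Gsk3a midbrain less hindbrain (adjusted p = 0.0675), T3 less T1 changes of 1.621, 0.2918, -1.53 and -2.046 for midbrain less hindbrain, left cortex less hindbrain, left cortex less midbrain and right cortex less midbrain, -1.654 for Gsk3a in NON left cortex and 0.1963 for Gsk3b in HOM midbrain between T1 and T3. Without the first reference gene the same 4 changes, of which the last 2 became calls in the lower direction, were 0.2157, 0.1111, -0.105 and -0.1464; between T1 and T3 in NON mice, Gsk3a was -0.05405 in midbrain and -0.1554 in left cortex and Gsk3b -0.04888 in midbrain (both midbrain calls lost), and Gsk3a had 9 lower calls over time. Without the second, Gsk3a changes from T1 to T3 were 0.1719, 0.1381 and 0.08984 for right cortex less hindbrain and left and right cortex less midbrain. Without the third, the last 2 were 0.1485 and 0.1005, and Gsk3b was -0.02341 and -0.01615 in left and right cortex less midbrain.

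At T3 alone Gsk3b was -0.06585 and -0.09852 in left and right cortex less midbrain, and at T2 alone 0.09626 in right less left cortex. AM pools alone gave 5 and 13 lower calls over time for Gsk3a and Gsk3b in 28 comparisons; PM pools alone gave NON T3 less T1 values of -0.09983 and -0.1285 in midbrain and, for Gsk3a, -0.1354 in right cortex. With NON pools only, the ratio in right less left cortex was -0.04143 (permutation test, adjusted p = 0.0931). Genotype calls fell to 1 and 0 with only the groups compared in the fit (the 1, Gsk3a in midbrain for HOM less NON at T3 AM, is not among the 3 called otherwise), to 1 and 1 with AM and PM averaged, and to 0 and 0 with a 2-fold limit. Without the shallow hindbrain pools Gsk3b had 2 genotype calls, Gsk3a left cortex less hindbrain T3 less T1 was 0.1075, the hindbrain NON ratio between T1 and T3 was 0.1829 and the ratio had 6 calls over time. Relative to the median target gene the hindbrain correlation of the kinases was 0.8517.

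Leaving out each pool in turn, the hindbrain NON ratio change between T1 and T3 ran from 0.1611 to 0.2735 and that of right cortex from 0.2618 to 0.3374, calls of the ratio over time from 6 to 13 (6 without T3 hindbrain NON pool 1/2, 7 or 8) and genotype calls of Gsk3b from 2 to 5 (2 without T3 hindbrain NON pool 7). A group left with 1 pool was assumed to vary like the others. The region comparisons without the replicate block kept every call. The replicate block of age-matched pools at T2 gave 0 calls in 16 comparisons for each kinase, as without it; it shares only ages. Tests with the 3 genotypes together, and of region differences of the ratio between time points, were chosen after seeing the data, as were those without the pair of unlike ages and without Pdk1.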
